A study of Mus musculus with 12 samples.

Results

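The genes of the proteasome were followed in bulk RNA-Seq libraries of NE-4C cells, an embryonic mouse neural progenitor line, with and without the gene Faf2. They were the 52 of 57010 genes in the deposited table whose symbol was Psm, a letter from a to g and a number, or was Pomp, Adrm1, Nfe2l1 or Ddi2. They held the 20S core subunits (7 alpha and 7 beta), their tissue-restricted forms (Psma8, Psmb8, Psmb9, Psmb10 and Psmb11), 18 subunits of the 19S particle, 8 assembly chaperones, 4 genes of activator caps, the inhibitor Psmf1, and Nfe2l1 and Ddi2, which act on proteasome gene transcription. Retroposed copies and pseudogenes named after these genes (for example Psme2b and Psma5-ps) and the unrelated Psmc3ip and Psme3ip1 did not match.

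There were 12 libraries, 3 in each of 4 groups. WT NO and WT RA were wildtype NE-4C cells and KO NO and KO RA were Faf2 knockout cells. NO libraries came from cells that were not induced, and RA libraries from cells given all-trans retinoic acid at 1 µM for 24 h and collected on day 3. The knockout was made with CRISPR/Cas9 as a deletion of exon 4 and grown from picked colonies, so that all KO libraries came from an edited clonal line, and libraries of a group came from separate passages of that line. Differences between genotypes therefore cannot be told apart from differences between this clone and the parent line, and p-values measure the spread between passages.

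The 26S proteasome degrades proteins that carry ubiquitin chains. Its 20S core is a barrel of alpha and beta rings whose beta subunits Psmb5, Psmb6 and Psmb7 hold the active sites, and the 19S particle on its ends recognises, unfolds and feeds in the substrate with a ring of ATPases (Psmc1 to Psmc6) and non-ATPase subunits such as the ubiquitin receptors Psmd4 and Adrm1. Cells that lack proteasome capacity raise most subunit genes together through the transcription factor NFE2L1, an endoplasmic reticulum protein that is pulled into the cytosol by the p97 machinery, to which FAF2 belongs as an adaptor, and cut by the protease DDI2. FAF2 itself acts in the degradation of misfolded proteins from the endoplasmic reticulum, whose last step is the proteasome.

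NFE2L1 binds antioxidant response elements, and the promoters of the 52 genes were searched for such letters from 250 bases before the start of the canonical transcript (GENCODE, GRCm39) to 50 bases after it, on both strands. The form TGACNNNGC stood in 9 of 52 promoters (17.3%), against 12.5% of the 21770 promoters of all protein-coding genes. The form TGANTCAGC, of the same length and with other positions fixed, so that a stretch can match both, stood in 0 of 52, against 1.11% of all promoters. The holders of TGACNNNGC were Adrm1, Psmb2, Psmb5, Psmb6, Psmc6, Psmd7, Psmd9, Psmd12 and Psmg2. Shown are stretches before the start of Psmb5 and Psmb6, active-site subunits, Psmd9, a chaperone of 19S assembly, and Psmd12, a 19S subunit. They were picked because each was called lower after RA in wildtype cells, KO cells or both, as given further on. Psmb2, whose motif runs across the start, and Psmg2 were called lower as well and are not shown. The other holders, Adrm1, Psmc6 and Psmd7, were not called lower after RA in either fit given further on. All of these calls were made without KO RA 3, and no holder was called lower after RA in the fit of 12 libraries. Without KO RA 3, 26% of the 50 tested members were called lower after RA in WT cells (5.13% of all genes). In KO cells 54% were (7.54% of all genes). The holders were counted over both genotypes, so neither share is a like comparison for them. The part of the motif in these calls was not tested. Capitals mark the motif, and each line runs 5′ to 3′ on the strand of the gene. The stretches lie at chr14:54855482-54855559 (minus strand), chr11:70416114-70416182 (plus strand), chr5:123366162-123366252 (plus strand) and chr11:107370058-107370175 (plus strand) of GRCm39. In Psmb6 the motif ends at the base before the transcript starts, and in Psmd12 it lies on the opposite strand and begins 201 bases before it.
Psmb5: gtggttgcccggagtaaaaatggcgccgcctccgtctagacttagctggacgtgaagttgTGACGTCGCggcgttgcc
Psmb6: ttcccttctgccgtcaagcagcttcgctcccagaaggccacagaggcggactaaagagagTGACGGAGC
Psmd9: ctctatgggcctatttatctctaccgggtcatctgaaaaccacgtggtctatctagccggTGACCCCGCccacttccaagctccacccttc
Psmd12: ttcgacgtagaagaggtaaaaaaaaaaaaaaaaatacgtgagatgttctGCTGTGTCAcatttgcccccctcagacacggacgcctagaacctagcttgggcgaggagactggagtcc

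Levels are given as CPM, the counts of a gene relative to the total of its library after TMM scaling (edgeR). The counts were corrected for gene length by the pipeline, so CPM were compared between genes as levels per length. Library totals ran from 17370069 (KO RA 1) to 30738717 (KO NO 2) counts. Fold changes came from edgeR's quasi-likelihood test over the 16502 genes that passed its filter, with p-values adjusted over all of them by Benjamini-Hochberg. A gene is said to be called where this edgeR adjusted p was under 0.05. Of the 52 genes 50 were tested, and Psmb8 and Psmb11 did not pass the filter.

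KO RA replicate 3 stood apart from the other 11 libraries. Its TMM factor was 0.394 against 0.872 to 1.28 elsewhere, mitochondrial genes took 23.5% of its counts against 9.1% to 17.7%, and its 100 most abundant genes took 62.5% against 37.1% to 50.4%. Proteasome genes differed in it as well, so counts of calls are given for all 12 libraries and for a second fit without KO RA 3, on 11 libraries and 17327 genes. WT NO 3 also differed from WT NO 1 and 2 in genes of the immunoproteasome and its surroundings, as given with those genes. Other genes differed in it too. Psmc1 was lower (188 against 303 and 285 CPM), as was Pou5f1 (1148 against 2126 and 2276 CPM), and Psmc6 higher (299 against 191 and 206 CPM). Faf2 itself had 50, 38.8 and 36.0 CPM in WT NO, 21.0, 21.7 and 25.4 in KO NO, 35.1, 37.8 and 49.0 in WT RA and 36.1, 34.3 and 18.7 in KO RA. The genotypes did not overlap without RA and did overlap after it, and because the deletion takes exon 4 only, counts over the whole gene do not check the labels.

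In untreated wildtype cells all constitutive subunits were expressed. In the 20S core the highest level was that of Psmb6, with 664, 615 and 602 CPM in the WT NO libraries. The lowest was that of the alpha subunit Psma2, with 101, 103 and 76.4 CPM. Highest and lowest core gene thus differed 5.94- to 7.87-fold within a WT NO library. Among the 18 genes of the 19S particle followed here, highest and lowest differed 2.93- to 3.39-fold. In WT NO 1 and 2 these were the ATPase Psmc1, at 303 and 285 CPM, and Psmd14, the deubiquitinase of the lid, at 103 and 92.9 CPM. In WT NO 3 they were the ATPase Psmc6, at 299 CPM, and Psmd1, a scaffold of the particle, at 88.2 CPM. Sem1, listed here with proteasome-associated factors and not with these 18 genes, was lower, at 65.4, 72.7 and 60.6 CPM in WT NO. The 14 core genes summed to 3552, 3446 and 3271 CPM and the 18 genes of the 19S particle to 3158, 3156 and 2869 CPM.

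Most assembly factors had lower levels than the subunits. The exception was Pomp, the maturation factor of the 20S core, at 232, 240 and 188 CPM. The 19S chaperones Psmd5, Psmd9 and Psmd10 lay between 15.7 and 37.0 CPM in WT NO, and the inhibitor Psmf1 at 31.9, 30.0 and 31.3 CPM. Of the activator caps, Psme3, the nuclear PA28 gamma, led with 289, 276 and 181 CPM. Of the tissue-restricted forms, Psmb10 had 1.37, 3.58 and 13.1 CPM in WT NO, and Psmb11, of the thymus, had at most 0.387 CPM in any library. The plot of all constitutive members by library shows these genes relative to WT NO.

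**Figure D1:**
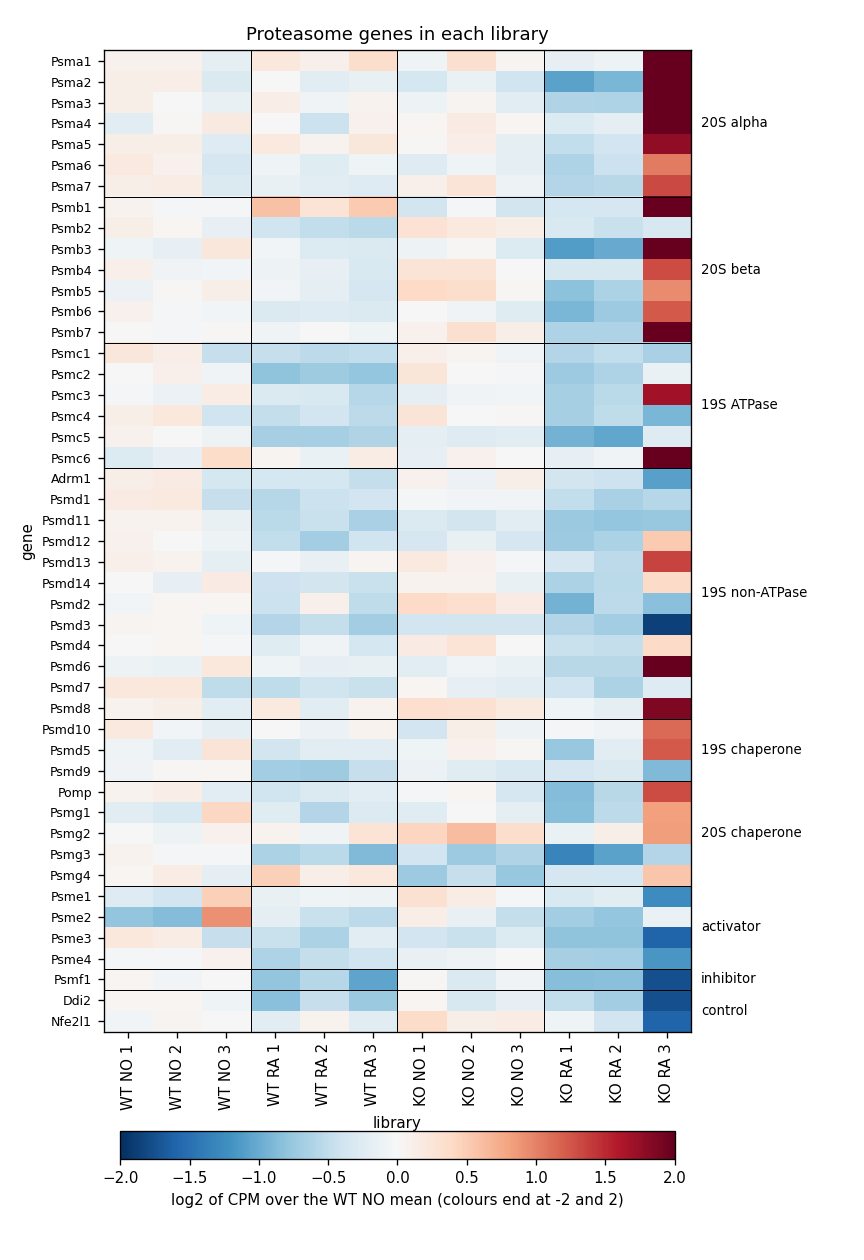
Rows are the 47 members other than Psma8, Psmb8, Psmb9, Psmb10 and Psmb11, grouped by role, and columns the 12 libraries; colour gives the log2 of each library's CPM over the WT NO mean. KO RA 3 stands apart, with Psma4 at 2334 CPM against 183 and 195 CPM in KO RA 1 and 2, and the 19S rows of WT RA are mostly blue on this TMM scale.

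Without RA, few proteasome genes differed between KO and WT cells. The sums of the 14 core genes were 3523, 3741 and 3204 CPM in KO NO, and those of the 19S particle 3060, 3035 and 2906 CPM, so both sets of sums overlapped those of WT NO. The median log2 fold change of the 50 tested genes, KO NO against WT NO, was −0.06, and that of all genes −0.02. By CPM, 8 members were higher in every KO NO than in every WT NO library and 8 lower, where 15.5% and 15.2% of all genes were, and 34 overlapped. With 12 libraries 1 member was called, Psma8, higher (0.788% of all genes were called higher and 0.351% lower). Leaving out KO RA 3 gave 2 called higher (4.43% of all genes) and 3 lower (4.35% of all genes), a share near that of all genes.

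The 3 members called lower were Psmg4, Psmg3 and Psmd3. Psmg4, a chaperone of alpha ring assembly (ENSMUSG00000071451, chr13:34346937-34362166), had 64.8, 70.2 and 55.2 CPM in WT NO and 38.2, 46.2 and 37.6 CPM in KO NO. The groups did not overlap, and the log2 fold change was −0.63 (SE 0.13, edgeR adjusted p = 0.0198, 11 libraries), and −0.64 (SE 0.26), not called, with 12. Its partner Psmg3 had 34.0, 31.7 and 31.6 CPM in WT NO and 24.8, 19.5 and 21.3 CPM in KO NO, again without overlap, and a log2 fold change of −0.56 (SE 0.14, edgeR adjusted p = 0.033, 11 libraries).

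Psmd3, a 19S lid subunit, fell from 221, 217 and 199 CPM to 162, 165 and 164 CPM (log2 fold change −0.36, SE 0.09, edgeR adjusted p = 0.039, 11 libraries). Psmg2, which pairs with Psmg1 in alpha ring assembly, rose from 39.5, 36.6 and 41.6 CPM to 53.0, 60.6 and 50 CPM (log2 fold change 0.48, SE 0.13, edgeR adjusted p = 0.0402, 11 libraries). Of the genes of the 20S chaperones, then, 1 was higher and 2 were lower. With 12 libraries Psmg3, Psmd3 and Psmg2 had log2 fold changes of −0.57, −0.37 and 0.47 and were not called. Without KO RA 3 the 678 tested genes of chromosome 13, that of Psmg4, were at a median of −0.36 on the log2 scale, whose part in the result was not tested.

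These calls rested on few libraries. The 5 calls of the fit without KO RA 3 became 1 (Psma8) on leaving out WT NO 1, WT NO 2 or KO NO 3 as well, 2 without KO NO 1 or KO NO 2, and 3 without WT RA 1, KO RA 1 or KO RA 2. Without WT NO 3 there were 12: Psmb10, Psme1 and Psme2 were then also called higher, and Psma2, Psmc5, Psmd11 and Psme3 lower. In the 12-library fit the call of Psma8 was lost on leaving out any WT NO or KO NO library.

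Psma8, the alpha subunit of germ cells that takes the place of Psma7 during meiosis, was the member that differed most. It had 0, 1 and 0 counts in the WT NO and 0 in each WT RA library. It had 171, 91 and 135 counts (5.0, 2.69 and 3.77 CPM) in KO NO and 33, 50 and 125 counts (1.49, 1.7 and 12.4 CPM) in KO RA. Every KO library thus held the transcript and no WT library held more than 1 count. The ratio of KO NO to WT NO was 338 (exact 95% interval 60.3 to 13371, for counting error only, 397 against 1 count), and KO RA was at least 70.2-fold higher than WT RA at a floor of 3 counts over the group, or at least 33.5-fold without KO RA 3. It was called higher in both comparisons (edgeR adjusted p = 0.0264 and 0.0229 with 12 libraries, 0.00114 and 0.0031 without KO RA 3). Psma8 passed the filter only through its KO libraries, where it was high, so these p-values add no independent support. A replicate block ended both calls with 12 libraries and neither call without KO RA 3. With 12 libraries the call after RA was lost on leaving out any WT RA or KO NO library. Without KO RA 3 no further library, left out in turn, ended either call.

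The level of Psma8 stayed far under that of Psma7, its constitutive counterpart, at 269, 300 and 234 CPM in KO NO. Of the genes on either side of it, Ss18 had 109 to 169 CPM in WT NO and 177 to 184 CPM in KO NO, and Taf4b, of germ cells too, 7.61 to 8.35 and 10.8 to 12.5 CPM. Both were expressed in WT cells, unlike Psma8. Taf4b had a log2 fold change of 0.55, not called, with 12 libraries and of 0.56 (SE 0.15, edgeR adjusted p = 0.0474) without KO RA 3, and Ss18 was not called in either fit. Of 6 germline markers, Stag3, a meiotic cohesin, was also called, at 0.141 to 0.406 CPM in WT NO and 22.5 to 27.1 CPM in KO NO. Sycp3, of the synaptonemal complex, had at most 0.274 CPM in WT and 0.865 to 1.67 CPM in KO NO and was not called in either fit. Dazl, Ddx4, Tex101 and Mael did not pass the filter and had at most 0.79 CPM in KO NO. The 6 markers summed to 0.317 to 0.61 CPM in WT NO and 26.0 to 28.3 CPM in KO NO, where Stag3 made up most of the sum. The part of these markers in the Psma8 result was not tested. Fewer cells with a transcript and less transcript per cell cannot be told apart in these bulk libraries.

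Psmb10, the inducible counterpart of Psmb7 in the immunoproteasome, was the other member higher in all KO than in all WT libraries of the same treatment (ENSMUSG00000031897, chr8:106662362-106665077). It had 1.37, 3.58 and 13.1 CPM in WT NO and 17.4, 17.3 and 14.7 CPM in KO NO. After RA it had 0.192, 0.872 and 0.811 CPM in WT and 7.53, 7.18 and 67.2 CPM in KO. In both conditions the genotypes did not overlap, but WT NO 3 came close to KO NO. The difference was called after RA (log2 fold change 5.43, SE 1.14, edgeR adjusted p = 0.0478 with 12 libraries; 3.54, SE 0.80, edgeR adjusted p = 0.0227 without KO RA 3) and not without RA (1.45, SE 0.93). The call after RA was lost in the 11-library fit on leaving out WT RA 1, WT RA 3, KO RA 1 or KO RA 2, and in the 12-library fit without WT NO 1, WT NO 2, KO RA 1 or any WT RA or KO NO library.

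**Figure D2:**
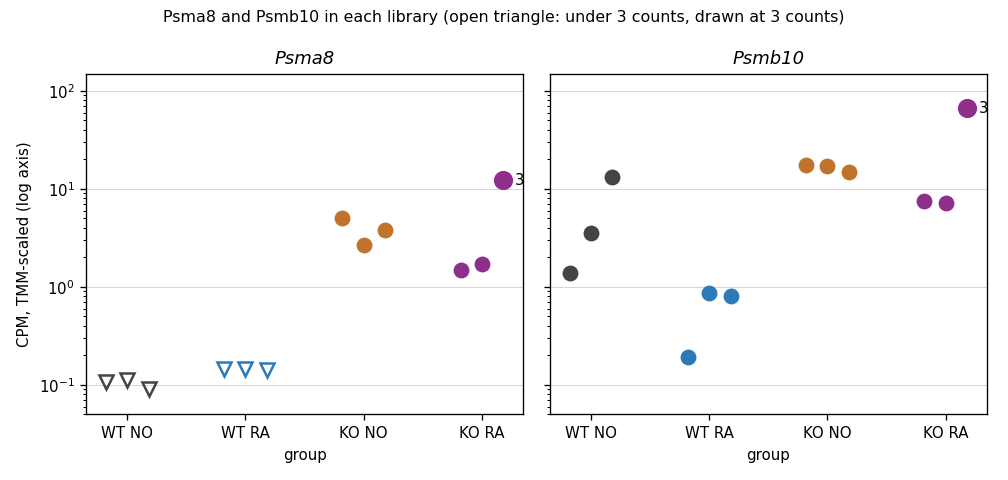
Points are the CPM of Psma8 (left) and Psmb10 (right) in each of 12 libraries by group, on a log axis; open triangles are libraries under 3 counts, drawn at 3 counts, and KO RA 3 is marked 3. Psma8 lies at 1.49 to 12.4 CPM in the KO libraries and under the floor in all WT libraries, and Psmb10 in WT NO ranges from 1.37 to 13.1 CPM.

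The other inducible subunits were near 0 in KO cells. Psmb9 had 0.563, 0.665 and 1.49 CPM in WT NO and 0.38, 0.237 and 0.251 CPM in KO NO. It had 30 counts over the KO NO libraries and 0 over KO RA 1 and 2, at least 4.97-fold lower at the floor of 3 counts (edgeR adjusted p = 0.047, 11 libraries; not called with 12). Psmb8 had 1.16 CPM in WT NO 3 and at most 0.263 CPM in the other libraries. Psme1 and Psme2, the PA28 cap that goes with the immunoproteasome, had 57.5, 52.8 and 95.8 CPM and 30.1, 28.4 and 97.3 CPM in WT NO. In WT NO 3 all 5 of these genes, Psmb10 among them, were thus above WT NO 1 and 2. So were Tapbp (34.1 against 5.77 and 3.69 CPM) and Irf1 (52.2 against 22.4 and 17.4 CPM). They belong to a list of antigen presentation and interferon response genes and were named after their values were seen. Of the same list, Tap1 was lower in WT NO 3 (0.427 against 1.3 and 0.739 CPM) and Tap2 higher (0.366 against 0.106 and 0.0739 CPM). Of the 9 tested genes of that list, 0 were called higher or lower in KO NO against WT NO with 12 libraries, and B2m was called lower without KO RA 3. In that fit H2-K1 was also called lower in KO RA than in WT RA and than in KO NO, and B2m higher in KO RA than in KO NO.

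After RA part of the proteasome genes were lower in wildtype cells, with the lower medians in the 19S particle. The 18 genes of the particle summed to 3158, 3156 and 2869 CPM in WT NO and to 2391, 2398 and 2340 CPM in WT RA. The 14 core genes summed to 3552, 3446 and 3271 CPM in WT NO and to 3267, 3012 and 3123 CPM in WT RA. Both sums were lower in all WT RA libraries, although for the core the highest WT RA and the lowest WT NO library nearly met. The median log2 fold change was −0.47 for the 6 ATPases and −0.39 for the 12 non-ATPase subunits, against −0.09 for the alpha and −0.19 for the beta ring and 0.00 for all genes (11 libraries). These medians kept their sign with 12 libraries and when libraries were scaled by their totals, where all genes had a median of −0.26; with limma-voom the alpha ring had 0.01.

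With 12 libraries no member was called in this comparison by edgeR, where 0.321% of all genes were called higher and 0.0848% lower. An unadjusted edgeR p under 0.05 was found for 12 of the 50 tested members, against 12.5% of all genes. DESeq2 called 6 members, all lower, and its share over all genes is not given here. In the fit without KO RA 3, 13 were called lower, 26% of the 50 tested against 5.13% of all genes, and 1 higher against 5.65%. By CPM 20 members were lower in every WT RA than in every WT NO library (14% of all genes) and 2 higher (15.1% of all genes). The 13 were the ATPases Psmc2 and Psmc5, the lid subunits Psmd3, Psmd11, Psmd12 and Psmd14, and the chaperones Psmd9 and Psmg3, with 5 more. These were the core subunit Psmb2, the tissue-restricted form Psmb10, the PA200 cap Psme4, the inhibitor Psmf1 and the protease Ddi2. The total of 14 was 7 without WT RA 1 or without WT RA 3.

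Psmc2 had 154, 166 and 147 CPM in WT NO and 88.5, 94.3 and 90.5 CPM in WT RA (log2 fold change −0.77, SE 0.10, edgeR adjusted p = 0.00309, 11 libraries). Psmc5 had 219, 209 and 193 CPM in WT NO and 131, 131 and 137 CPM in WT RA (−0.63, SE 0.09, edgeR adjusted p = 0.00341, 11 libraries). In both the groups lay well apart, and the spread within a group was small. Their ring partner Psmc6 did not go along, with 191, 206 and 299 CPM in WT NO and 240, 212 and 257 CPM in WT RA (log2 fold change 0.03, SE 0.17). Psmf1, an inhibitor of the 20S core, fell from 31.9, 30.0 and 31.3 CPM to 17.9, 20.8 and 14.9 CPM (−0.79, SE 0.14, edgeR adjusted p = 0.00872, 11 libraries). With 12 libraries the log2 fold changes of Psmc2, Psmc5 and Psmf1 were −0.77, −0.64 and −0.80, and none of these was called.

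Psmb1, a beta subunit without an active site, went the other way. It had 137, 128 and 126 CPM in WT NO and 195, 157 and 186 CPM in WT RA, without overlap (log2 fold change 0.47, SE 0.12, edgeR adjusted p = 0.0356, 11 libraries; 0.46, SE 0.69, not called, with 12). By library totals the value was 0.20 and not called, and the call was also lost without WT NO 1, WT NO 2, WT RA 1, WT RA 3, KO RA 1 or KO RA 2. The active-site subunits Psmb5, Psmb6 and Psmb7 had log2 fold changes of −0.19, −0.28 and −0.05 (SE 0.13, 0.10 and 0.09) and were not called. Within a library the core sum over the 19S sum, a value that does not depend on how libraries are scaled, was 1.13, 1.09 and 1.14 in WT NO and 1.37, 1.26 and 1.33 in WT RA. The ratio was higher in all WT RA libraries (exact permutation test, two-sided, p = 0.1, the smallest that 3 against 3 libraries allow).

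**Figure D3:**
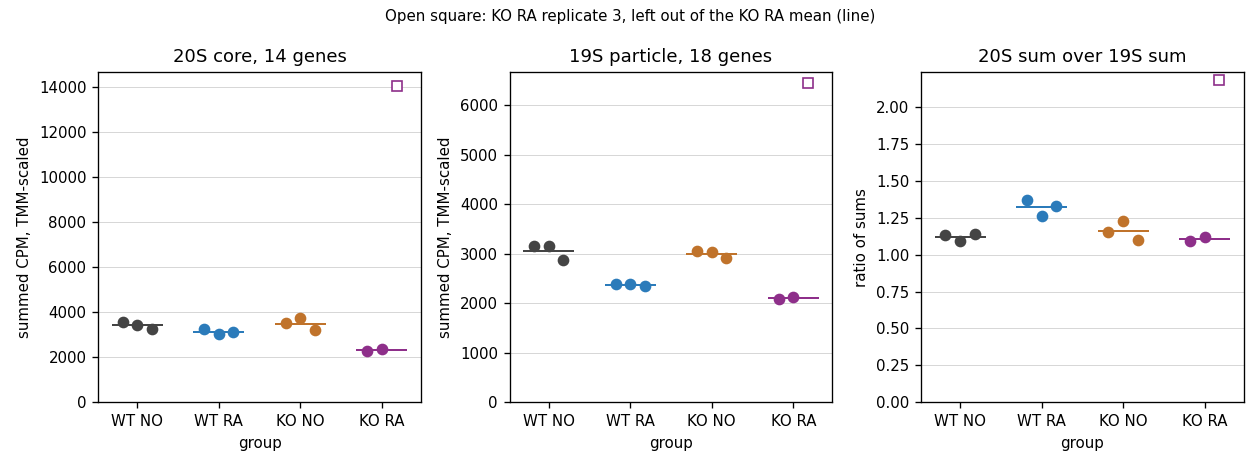
Points are libraries, with the summed CPM of the 14 core genes (left), of the 18 genes of the 19S particle (middle) and their ratio (right); lines are group means, and the open square is KO RA 3, left out of the KO RA mean. The ratio is 1.26 to 1.37 in WT RA and 1.09 to 1.23 in WT NO, KO NO and KO RA 1 and 2; the sums are on the TMM scale, and by library totals the core sums of KO RA 1 and 2 lie within the range of WT RA.

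In KO cells RA was followed by lower levels of both particles once KO RA 3 was left out. The core sum went from 3523, 3741 and 3204 CPM in KO NO to 2275 and 2374 CPM in KO RA 1 and 2, and the 19S sum from 3060, 3035 and 2906 CPM to 2094 and 2126 CPM. The median log2 fold change of the 50 tested genes was −0.53 against −0.02 for all genes, and only Psmd10 and Psmg4 had a value above 0. It was −0.73 in the beta ring, −0.64 in the ATPases, −0.45 in the other 19S subunits and −0.44 in the alpha ring, and stayed below 0 in each when libraries were scaled by their totals (all genes 0.10). In this fit 27 members, 54%, were called lower (7.54% of all genes) and 0 higher (8.48% of all genes).

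With 12 libraries the same comparison gave a median of −0.02 (all genes 0.11) and 3 members called lower, Psmd2, Psmf1 and Psme4 (1.59% of all genes were called lower and 3.89% higher). The 14 core genes then had a median of 0.81 (−0.13 by library totals), so the direction of the core depended on KO RA 3. The 27 calls became 16 without KO NO 1, 17 without KO NO 2, 5 without KO RA 1 and 8 without KO RA 2, the last 2 with a lone KO RA library that was taken to vary like the rest, and 41 without WT NO 3. The 3 calls became 1 (Psmd2) without WT NO 1, WT NO 2 or any WT RA library and 0 without any KO NO library or KO RA 1.

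Psmd2, a scaffold subunit of the 19S base (ENSMUSG00000006998, chr16:20470346-20485708), had 194, 186 and 165 CPM in KO NO and 76.7, 103 and 83.3 CPM in KO RA. It was lower in all 3 KO RA libraries, KO RA 3 included (log2 fold change −1.05, SE 0.23, edgeR adjusted p = 0.0236 with 12 libraries; −1.03, SE 0.19, edgeR adjusted p = 0.0066 without KO RA 3). Psmb5, the chymotrypsin-like active site, had 199, 193 and 153 CPM in KO NO and 85.9, 97.0 and 292 CPM in KO RA. Its log2 fold change without KO RA 3 was −1.0 (SE 0.15, edgeR adjusted p = 0.00239), the lowest of the 14 core genes, and with it −0.20. Psmb7, the trypsin-like active site (ENSMUSG00000026750, chr2:38478044-38534099), had 308, 362 and 313 CPM in KO NO and 189, 190 and 2197 CPM in KO RA; its log2 fold change was −0.80 (SE 0.11, edgeR adjusted p = 0.00137) without KO RA 3 and 1.39 with it.

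The ubiquitin receptors Psmd4 and Adrm1 of the 19S particle were lower after RA in KO RA 1 and 2. Psmd4 had 261, 283 and 236 CPM in KO NO and 171, 169 and 306 CPM in KO RA (log2 fold change −0.62, SE 0.12, edgeR adjusted p = 0.00706 without KO RA 3; −0.27, not called, with it). Adrm1 had 155, 134 and 158 CPM in KO NO and 113, 110 and 68.9 CPM in KO RA, low in KO RA 3 too, but was not called (−0.43, SE 0.15, without KO RA 3; −0.62, SE 0.24, with it). In WT they had log2 fold changes of −0.22 and −0.39, not called. Of the ATPases Psmc1 had 279, 270 and 248 CPM in KO NO and 172, 184 and 166 CPM in KO RA, with close values in the 3 KO RA libraries (−0.59, SE 0.17, edgeR adjusted p = 0.044 without KO RA 3; −0.61, SE 0.22, not called, with it).

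The core subunits Psmb2 and Psma7 differed in how they stood in KO RA 3. Psmb2, a beta subunit without an active site, had 451, 423 and 399 CPM in KO NO and 298, 270 and 294 CPM in KO RA (log2 fold change −0.59, SE 0.12, edgeR adjusted p = 0.00938 without KO RA 3; −0.56, SE 0.20, not called, with it). Psma7 had 269, 300 and 234 CPM in KO NO and 166, 171 and 627 CPM in KO RA (−0.68, SE 0.15, edgeR adjusted p = 0.0131 without KO RA 3; 0.26 with it). The assembly factor Psmg1 had 55.0, 64.3 and 57.6 CPM in KO NO and 35.9, 45.1 and 114 CPM in KO RA and was not called in either fit. In the activator cap Psme3 had 191, 182 and 206 CPM in KO NO and 142, 143 and 82.1 CPM in KO RA, and was not called (−0.45, SE 0.19, without KO RA 3; −0.66, SE 0.28, with it).

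The 3 members called with 12 libraries were low in KO RA 3 as well. Psmf1 had 31.5, 25.4 and 29.6 CPM in KO NO and 17.1, 17.4 and 9.21 CPM in KO RA (log2 fold change −0.98, SE 0.25, edgeR adjusted p = 0.0483, 12 libraries), and Psme4 62.3, 64.1 and 69.8 CPM and 43.5, 43.1 and 30.7 CPM (−0.74, SE 0.19, edgeR adjusted p = 0.0479, 12 libraries). Psmf1 and Psme4 were thus lower after RA in both genotypes in the fit without KO RA 3. Pomp, the maturation factor, had 217, 226 and 174 CPM in KO NO and 121, 150 and 541 CPM in KO RA (−0.61, SE 0.16, edgeR adjusted p = 0.0261 without KO RA 3; 0.40 with it). The plot of RA responses by gene shows the 47 constitutive members in both genotypes.

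**Figure D4:**
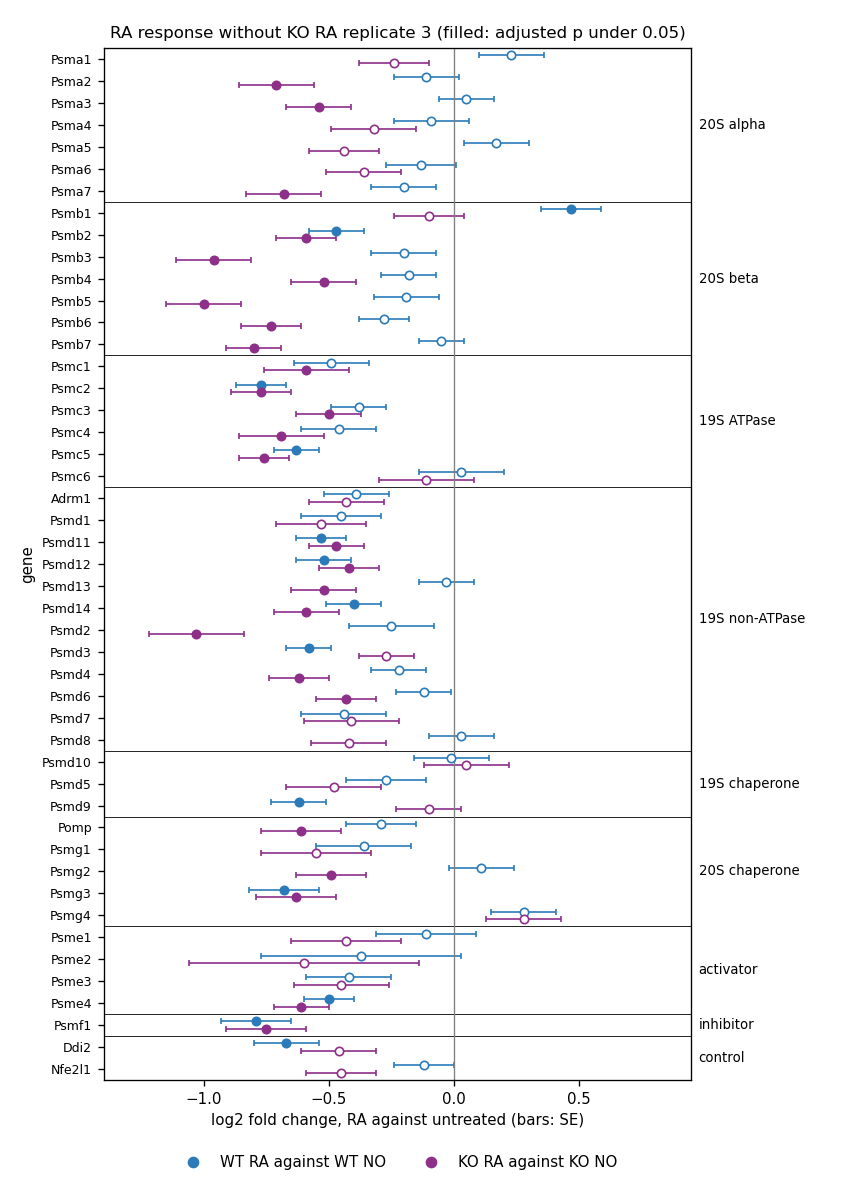
Points are log2 fold changes of RA against untreated cells for WT (blue) and KO (purple) in the fit without KO RA 3, with bars of 1 SE, for 47 members by role; filled points have an edgeR adjusted p under 0.05. In the 20S rows KO points lie left of WT points, with Psmb5 at −0.19 in WT and −1.0 in KO, while Psmc2, an ATPase, is at −0.77 in both; by library totals 4 of the 14 core genes have the KO point to the right.

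In KO RA against WT RA the core had a lower median fold change than the 19S particle when KO RA 3 was left out. The core sum was 3267, 3012 and 3123 CPM in WT RA and 2275 and 2374 CPM in KO RA 1 and 2, and the 19S sum 2391, 2398 and 2340 CPM in WT RA and 2094 and 2126 CPM in KO RA 1 and 2. The ratio of these sums was 1.37, 1.26 and 1.33 in WT RA against 1.09 and 1.12 in KO RA 1 and 2 (exact permutation test, two-sided, p = 0.2, the smallest that 2 against 3 libraries allow), and 2.18 in KO RA 3. With KO RA 3 kept, the mean ratio was 1.46 (SD 0.624) in KO RA against 1.32 in WT RA, the other direction. Without KO RA 3 the median log2 fold change, KO RA against WT RA, was −0.54 for the 14 core genes. It was −0.16 for the 18 genes of the 19S particle, against 0.01 for all genes.

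This direction is relative to the bulk of genes and depended on the scaling. With CPM on library totals, the core summed to 2850, 3061 and 2784 CPM in WT RA and to 2904 and 2908 CPM in KO RA 1 and 2, within the range of WT RA. The median log2 fold change was then −0.11 for the core and 0.29 for the 19S particle, where all genes had 0.45, so that the core minus all genes was −0.56 under both scalings and the 19S particle minus all genes −0.17 with TMM and −0.16 by totals. In WT RA, mitochondrial genes took 13.3% to 17.7% of counts and genes of ribosomal proteins 23.6% to 25.6%, and in KO RA 1 and 2 12.4% to 12.6% and 18.5% to 18.7%; their part in this difference was not tested. By library totals the fit without KO RA 3 called Psma2 and Psmb1 lower and Psma8, Psmb10, Psmb2, Psmc2 and Psmd9 higher.

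With TMM and without KO RA 3, 9 members were called lower in KO RA than in WT RA, 18% against 5.44% of all genes, and 2 higher (Psma8 and Psmb10, 4.42% of all genes). The 9 were the core subunits Psma2, Psma3, Psma5, Psmb1, Psmb3, Psmb5, Psmb6 and Psmb7 and the chaperone Psmg4. No 19S subunit was called by edgeR, while DESeq2 called Psmc5, Psmd6 and Psmd13 lower as well. With 12 libraries only Psma8 and Psmb10 were called (0.885% of all genes were called higher and 0.358% lower), and the median of the 14 core genes was 0.74. The 11 calls were 17 without WT NO 3, 5 without WT RA 1, 6 without WT RA 3, 1 without KO RA 1 and 2 without KO RA 2.

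Psmb1 had 195, 157 and 186 CPM in WT RA and 102, 103 and 976 CPM in KO RA (log2 fold change −0.81, SE 0.14, edgeR adjusted p = 0.00773 without KO RA 3; 1.13 with it). Psma2 had 94.4, 80.0 and 84.5 CPM in WT RA and 44.3, 49.8 and 372 CPM in KO RA (−0.88, SE 0.15, edgeR adjusted p = 0.00854 without KO RA 3; 0.85 with it). KO RA 1 and 2 lay below WT RA and KO RA 3 above it in both. The medians over the tested genes of their chromosomes, 17 for Psmb1 and 13 for Psma2, were −0.49 and −0.43 on the log2 scale in this fit, and the part of this in either result was not tested. Psmb3, a beta subunit of chromosome 11, where the median was −0.07, had 295, 253 and 250 CPM in WT RA and 141, 152 and 1302 CPM in KO RA (−0.87, SE 0.15, edgeR adjusted p = 0.00901 without KO RA 3).

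Whether RA acted differently on these genes in KO and WT cells was tested as the difference of the RA responses. With 12 libraries edgeR called 0 members higher and 0 lower at the adjusted threshold, as for all genes (0% in either direction). An unadjusted edgeR p under 0.05 was found for 2 of 50 members, against 8.62% of all genes, and DESeq2 called 0 members. In the 11-library fit it called Psmb7, with a difference of −0.75 on the log2 scale (SE 0.14, edgeR adjusted p = 0.0377), where 0.537% of all genes were called lower and 0.802% higher. By library totals the difference for Psmb7 was −0.37 and not called, and Psmd9 was called higher. The call of Psmb7 was lost on leaving out any further library other than WT NO 3, without which there were 5 (Psmb3, Psmb5, Psmb7, Psme1 and Psme2). The median difference was −0.53 for the 14 core genes, all 14 below 0, and −0.13 for the 19S particle; by library totals these were −0.14 and 0.26, where all genes had 0.38. With 12 libraries they were 0.86 and 0.16, where all genes had 0.12.

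In KO RA 3 the core stood out of proportion to the 19S particle. Psma4 had 2334 CPM, Psmc6 2509 CPM and Psmb7 2197 CPM, against 183 to 222 CPM for the same genes in KO RA 1 and 2. The highest and lowest of the 18 genes of the 19S particle differed 43.1-fold in that library and 2.64- to 3.39-fold in the other 11. The median log2 ratio of KO RA 3 to the mean of KO RA 1 and 2 was 2.59 for the 14 core genes and 0.63 for the 18 genes of the 19S particle, against −0.53 for the 11728 protein-coding genes at 1 CPM or more.

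Not all members were high in KO RA 3: Psmb2 had a log2 ratio of 0.05, Psmd3 of −1.23, Ddi2 of −1.16 and Nfe2l1 of −1.38. Over these 11728 genes the ratio fell with the length of the canonical transcript (Spearman correlation −0.38), as it did over 49 members (−0.38), all values sharing the same libraries. Within the 14 core genes the correlation was 0.09, and within the 19S particle −0.27. In transcripts of up to 1000 bases the median was 1.83 for 500 genes and 1.40 for 6 members. In transcripts over 3000 bases it was −0.91 for 7063 genes and −0.11 for 13 members, and Psmb1, with 6002 bases, had 3.25. By library totals the core sum in KO RA 3 was 5532 CPM against 2904 and 2908 in KO RA 1 and 2, and the 19S sum 2536 CPM against 2673 and 2604.

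**Figure D5:**
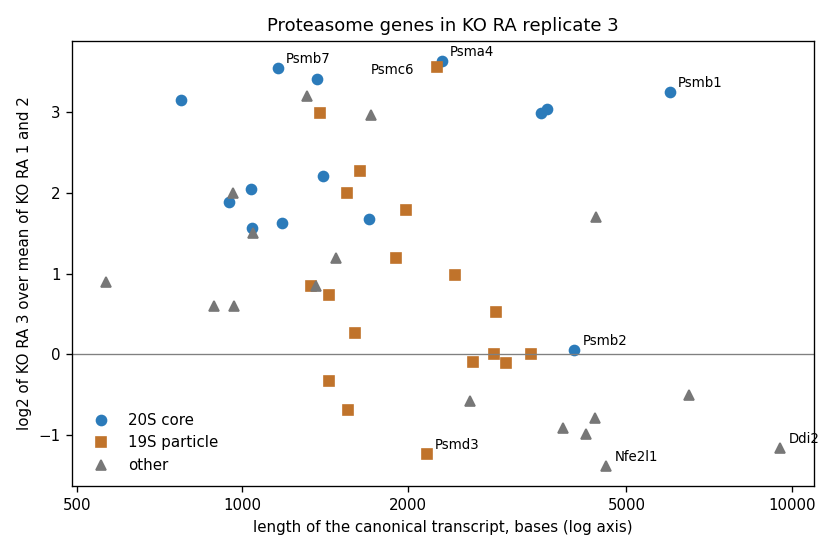
Points are 49 members, with the length of the canonical transcript in bases (log axis) against the log2 ratio of KO RA 3 to the mean of KO RA 1 and 2; blue are 20S core genes, orange 19S genes and grey the others. All 14 core genes lie above 0, from Psmb2 at 0.05 to Psma4 at 3.63, and the 19S genes spread from Psmd3 at −1.23 to Psmc6 at 3.55.

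The genes that act on proteasome transcription were not called between the genotypes in either fit. Nfe2l1 had 123, 133 and 128 CPM in WT NO and 165, 139 and 142 CPM in KO NO, higher in every KO library, with a log2 fold change of 0.22 (SE 0.32) with 12 libraries and 0.23 (SE 0.12) without KO RA 3. After RA it had 109, 134 and 109 CPM in WT and 120, 98.6 and 42.1 CPM in KO, which overlapped. Ddi2 had 50, 49.9 and 45.7 CPM in WT NO and 27.3, 35.2 and 29.0 CPM in WT RA (log2 fold change −0.67, SE 0.13, edgeR adjusted p = 0.0141 without KO RA 3; −0.67, SE 0.28, not called, with it), and 49.6, 38.7 and 43.5 CPM in KO NO and 34.4, 30.0 and 14.4 CPM in KO RA (−0.46, SE 0.15, without KO RA 3; −0.74, SE 0.29, with it; not called in either). Of a list of 13 genes around NFE2L1 (its relatives, partners and processing factors such as Vcp, Nploc4 and Sel1l), 0 were called in any of the 5 comparisons with 12 libraries. Without KO RA 3 Sel1l was called higher in KO RA than in WT RA and Nploc4 lower in WT RA than in WT NO.

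Few genes around the proteasome were called. Of 10 proteasome-associated factors in the table, Usp14, a deubiquitinase of the 19S particle, was called lower in WT RA than in WT NO, and Ecpas, a 26S scaffold, lower in KO RA than in KO NO, both without KO RA 3. Among 10 heat shock chaperones, Hsph1 was lower after RA in KO cells in both fits, and Hsph1 and Hsf1 in WT cells without KO RA 3. With 12 libraries no other gene of these lists was called in any comparison by edgeR.

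Markers of cell types differed with RA and genotype as well. Of 7 neural progenitor genes every one was above 3 counts in some library, but Sox1 had only 0.598, 0.813 and 0.152 CPM in WT NO. The 7 genes summed to 474 to 502 CPM in WT NO, 379 to 427 in KO NO, 537 to 731 in WT RA and 772 to 886 in KO RA 1 and 2. In KO RA against KO NO 4 of them (Cdh2, Nes, Sox1 and Vim) were called higher with 12 libraries, and Otx2 was called lower without KO RA 3. Pax6 of the same list was called lower in KO than in WT cells without and with RA in both fits, at 4.12 to 9.29 CPM in WT NO and 0.79 to 2.01 CPM in KO NO (log2 fold change −2.50, SE 0.45, edgeR adjusted p = 0.0264, 12 libraries). Without KO RA 3 Cdh2 was also called lower in untreated KO than in untreated WT cells, and after RA Cdh2, Nes and Sox1 were called higher in KO cells; Sox1 and Sox2 were called higher in WT RA than in WT NO. The 6 neuronal genes summed to 77.5 to 107 CPM in WT NO, 69.4 to 87.1 in KO NO, 138 to 158 in WT RA and 141 to 170 in KO RA 1 and 2, and Map2 and Tubb3 were called higher in KO RA than in KO NO. In the 11-library fit Dcx and Map2 were called higher and Rbfox3 lower after RA in WT cells, Elavl3 lower in untreated KO than in untreated WT cells, and Map2 higher in KO than in WT cells after RA. The part of these shifts in the RA responses of the proteasome genes was not tested.

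The 5 mesenchymal genes summed to 19.4 to 52.6 CPM in WT NO, 32.1 to 39.7 in KO NO, 58.3 to 62.5 in WT RA and 72.6 to 131 in KO RA 1 and 2, with Col1a2 and Prrx1 called higher after RA in both genotypes with 12 libraries. The 5 endothelial genes were under 3 CPM in sum in WT and KO NO and at 11.4 to 13.3 CPM in KO RA 1 and 2. The 5 pluripotency genes, with Zfp42 at 3 counts or fewer in every library, summed to 1757 to 2824 CPM in WT NO, 1923 to 2357 in KO NO, 2544 to 3635 in WT RA and 1367 to 1582 in KO RA 1 and 2; without KO RA 3 Pou5f1 was called lower in KO than in WT cells after RA and Nanog higher after RA in WT cells. Astroglial genes (Aqp4 and S100b at 3 counts or fewer) stayed between 8.77 and 18.6 CPM in sum, and haematopoietic genes between 5.8 and 21.6 CPM outside KO RA 3, with 0 of 2 tested genes called by edgeR in either list. The part of these genes in the proteasome results was not tested either.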

How the data were processed

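RNA was sequenced as polyA-selected paired-end libraries of NE-4C cells, 3 for each of 4 groups. The authors aligned reads with STAR and estimated transcript levels with Salmon in the nf-core RNA-seq pipeline on GRCm39. The deposited values are estimated counts per gene, scaled from TPM to each library total and so corrected for gene length; over the 3851 genes above 0 in 1 library only, values fell with exonic length (Spearman correlation −0.685, a description). No columns of the table were left out. The values were rounded, genes were filtered with filterByExpr, scaled with TMM and tested with edgeR 4.0.16 (R 4.3.3, robust quasi-likelihood, 1 coefficient per group over all 12 libraries), with Benjamini-Hochberg adjusted p under 0.05 over all genes, and the same was done without KO RA 3. The script was tested on simulated data with a smaller spread than the common dispersion of 0.215 of the 12-library fit. No simulated library was like KO RA 3, so that test cannot show how the calls behave with such a library.

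The 5 comparisons set the genotypes against each other without and with RA, set RA against no RA within each genotype, and set the RA response of KO cells against that of WT cells. Ratios of sums were compared with exact permutation tests. Intervals and the floor of 3 counts cover counting error only. The genes named were those called in either fit, the 3 highest and 3 lowest fold changes of a comparison, a set of members of each role, those left out by the filter, those with the motif and the called genes of other lists; Psmd1 and the antigen presentation genes of WT NO 3 were named after their values were seen; members, lists and alternatives were chosen with earlier results of these data known. Alternatives were DESeq2 1.42.0, limma-voom (limma 3.58.1), other scalings and filters, fits to the compared groups alone, a replicate block and leaving out each library. Positions and promoters came from GENCODE on GRCm39, which held all 52 genes; positions are those of the annotation. Replicate numbers were shared by the groups, and whether same-numbered libraries came from a shared passage is not stated. Because such libraries did not deviate together, the numbers were not taken to pair them, which cannot exclude a shared passage. Some results of other gene lists are not reported here.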

Additional observations from a re-analysis of the deposited data

Results flagged for a closer look

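The RA response of Psmb7 was called as different between KO and WT cells in the test of the difference itself, at −0.75 on the log2 scale (SE 0.14, edgeR adjusted p = 0.0377, fit without KO RA 3). It was the only one of the 50 tested members called (0.537% of all genes were called lower). Psmb7 was lower in both KO RA libraries of that fit than in all KO NO libraries, and had 288, 286 and 295 CPM in WT NO and 277, 288 and 273 CPM in WT RA. With KO RA 3 the difference was 1.44 and not called. Without KO RA 3 the call was lost by library totals and with a replicate block. It was also lost on leaving out any further library other than WT NO 3.

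Psmd2 was higher in every KO NO library (194, 186 and 165 CPM) than in every WT NO library (142, 152 and 152 CPM), and lower in every KO RA library (76.7, 103 and 83.3 CPM) than in every WT RA library (110, 159 and 104 CPM). It was flagged because the genotypes lay in opposite order without and with RA, and the difference of the RA responses, −0.79 on the log2 scale (SE 0.32), did not pass the test (edgeR adjusted p = 0.529 with 12 libraries and 0.141 without KO RA 3).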

How the results depend on the processing

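Counts of calls are given for KO against WT without RA, KO against WT after RA, the RA response of WT, the RA response of KO, and the difference of those responses, in that order. edgeR called 1, 2, 0, 3 and 0 proteasome genes with 12 libraries and 5, 11, 14, 27 and 1 without KO RA 3. Leaving out 1 library gave 0 to 5, 0 to 11, 0 to 14, 0 to 27 and 0 to 1 with 12 libraries, and 1 to 12, 1 to 17, 7 to 19, 5 to 41 and 0 to 5 without KO RA 3.

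With 12 libraries, KO NO against WT NO gave 0 calls at 10 counts in every library, a setting that drops Psma8, 10 with limma-voom and 0 with a replicate block. KO RA against WT RA gave 1 with DESeq2, 1 with no filter, 0 at 10 counts, 0 in a fit to the compared groups, 10 with limma-voom and 0 with the block. WT RA against WT NO gave 6 with DESeq2, 6 in a fit to the compared groups and 19 with limma-voom. KO RA against KO NO gave 9 with DESeq2, 0 by library totals, 0 with no filter, 1 at 10 counts, 0 in a fit to the compared groups, 34 with limma-voom and 1 with the block. Without KO RA 3, library totals gave 3, 7, 28 and 14 calls in the first 4 comparisons, limma-voom 12, 18, 22, 41 and 4 in all 5, the block 2 in KO NO against WT NO and 0 for the difference, and DESeq2 9 for the difference. No other count moved by over 1.5 times with the replicate block; that of WT RA against WT NO without KO RA 3 was 12, with Psmb1 and Psmd14 not called. For the difference no fit to fewer groups exists. The shares of all genes called under these other settings are not given here, so these counts alone do not set the proteasome genes apart. In KO RA against KO NO without KO RA 3, 38.4% of all genes had an unadjusted limma-voom p under 0.05. With edgeR 30.9% of all genes did in that comparison. Of the 50 tested members 43 did with limma-voom and 38 with edgeR. Same-numbered libraries did not deviate together (correlations −0.167 to 0.068), so the numbers were not taken to pair them.

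Of the fold changes of single genes, 37 reversed in all, each with or without KO RA 3 or with limma-voom under library quality weights. Of the genes called without it, KO RA against WT RA was positive with 12 libraries, on the log2 scale, for Psma2 (0.85), Psma3 (1.10), Psma5 (0.54), Psmb1 (1.13), Psmb3 (1.00), Psmb5 (0.26), Psmb6 (0.50) and Psmb7 (1.62). KO RA against KO NO was positive with 12 libraries for Pomp (0.40), Psma2 (1.02), Psma3 (1.23), Psma7 (0.26), Psmb3 (0.91), Psmb4 (0.25), Psmb6 (0.32), Psmb7 (1.39), Psmc3 (0.69), Psmd6 (1.31), Psmd12 (0.11) and Psmd13 (0.34), and the difference for Psmb7 (1.44). Leaving out KO RA 1 in place of KO RA 3 gave 0.63 for Psmb5, 0.93 for Psmb6 and 2.19 for Psmb7 after RA, 0.83 for Pomp, 0.65 for Psma7, 0.75 for Psmb6 and 1.96 for Psmb7 in the RA response of KO, and 2.01 for the difference of Psmb7. Without KO RA 3 the negative values were −0.54 for Psmb5, −0.54 for Psmb6 and −0.56 for Psmb7 in KO RA against WT RA, −0.61 for Pomp, −0.68 for Psma7, −0.73 for Psmb6 and −0.80 for Psmb7 in KO RA against KO NO, and −0.75 for the difference of Psmb7. With limma-voom they were −0.49 for Psmb6 in KO RA against WT RA and, in KO RA against KO NO, −0.52 for Pomp, −0.61 for Psma7, −1.14 for Psma8, −1.11 for Psmb10, −0.65 for Psmb6, −0.72 for Psmb7 and −0.51 for Psmg1. Depth limits Psma8, Psmb8, Psmb9 and Psmb11, where the floor of 3 counts is 0.0837 to 0.297 CPM.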
